A study of Mus musculus with 16 samples.

Results

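Paired T cells with many receptor transcripts were described in tumour-infiltrating cells of mice carrying Hepa1-6 tumours. Members were cells with exactly 1 productive T cell receptor beta (TRB) chain and 1 or 2 productive alpha (TRA) chains whose unique molecular identifiers (UMIs, each standing for 1 captured transcript molecule) summed to 30 or more over those chains. They numbered 956 of 4614 paired cells, among 5908 barcodes called cells in 8 receptor libraries. The 3658 paired cells under 30 UMIs in the same libraries served as the comparison. Because the UMI sum chose the members, UMI levels of members and other cells are given as description and were not tested.

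Hepa1-6, a mouse hepatoma line, was grown as an orthotopic tumour in the left lobe of the liver of C57BL/6 mice. KO libraries came from mice of genotype CD4creMatr3fl/fl and CON libraries from mice of genotype CD4creMatr3WT/WT, so the controls also carried Cre, under the Cd4 promoter, and differed in having unfloxed Matr3. Matrin 3, the product of Matr3, sits in the nucleus and binds nucleic acids. The groups were KO at day 14, CON at day 14, KO at day 5 and CON at day 5, with 2 libraries each. Whether each library is a different mouse is not stated in the labels, so a p-value here measures the spread between libraries, and this spread may be technical. Gene expression libraries (8) of these groups are not analysed here, and the receptor tables do not show Matr3 itself, CD4 or CD8.

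As background, a T cell receptor joins an alpha and a beta chain, each assembled from V and J gene segments (with a D segment in beta) during thymic development, and the junction forms the CDR3 loop that contacts the ligand. Cells that share both rearrangements are taken to descend from 1 cell and form a clonotype, which grows when the receptor meets its antigen. Invariant natural killer T (iNKT) cells use a nearly fixed alpha chain of TRAV11 joined to TRAJ18, mostly with Vbeta8 (TRBV13 segments), Vbeta7 (TRBV29) or Vbeta2 (TRBV1) beta chains. They recognise lipids on CD1d and are abundant in mouse liver.

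Libraries held 474 to 1404 cell barcodes, 362 to 1134 paired cells and 7683 to 31936 productive UMIs, and the mean was 16.96 to 25.1 UMIs per paired cell. All 8 libraries held both kinds of chain, with no immunoglobulin contig and 0 productive chains among 41 gamma or delta contigs. The libraries were made for T cell receptors, so these counts do not show which cell types were present. Only 21 cell barcodes were found in more than 1 library, and they covered 37 paired cells and 12 members. Reads per UMI were 459 to 1279 in members and 429 to 1883 in other cells, and they were lower in members in 7 of 8 libraries.

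Members carried a median of 42 UMIs, of which 11 were TRA and 31 TRB, against 14 UMIs in other cells, of which 4 were TRA and 9 TRB. Their distribution was continuous across the bound, with 67 cells at 28 UMIs and 60 at 29, then 60 at 30 and 57 at 31. The highest member had 445 UMIs, 418 of them TRB, and belonged to KO day 14 replicate 2. At 60 UMIs or more there were still 192 cells, and 37 cells had 100 or more. The members held 25.2% to 58.3% of the UMIs of a library's paired cells.

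**Figure D1:**
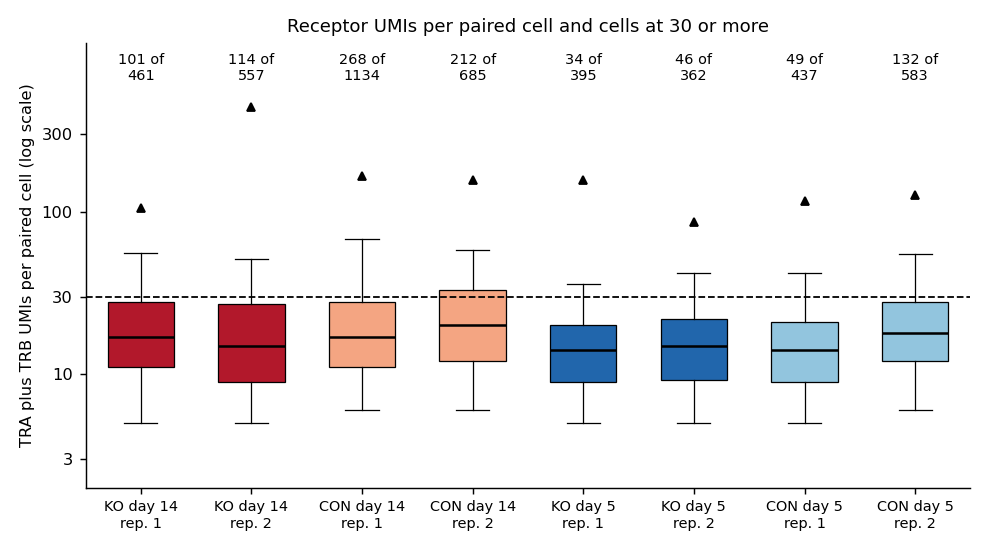
UMIs of TRA and TRB chains per paired cell (log scale) in each library; boxes show the quartiles and median, whiskers the 5th and 95th percentiles, triangles the highest cell, and the dashed line the bound of 30. The numbers above give members of all paired cells, from 34 of 395 in KO day 5 replicate 1 to 268 of 1134 in CON day 14 replicate 1.

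The share of paired cells that were members was larger at day 14 in most libraries. It was 21.9% and 20.5% in the KO libraries and 23.6% and 30.9% in the CON libraries of day 14. At day 5 it was 8.61% and 12.7% in the KO libraries and 11.2% and 22.6% in the CON libraries. CON day 5 replicate 2 lay within the range of day 14, so the days overlapped. Day 14 libraries averaged 24.2% ± 4.66 and day 5 libraries 13.8% ± 6.14 (SD, n = 4 each), a difference of 10.4 points (two-sided exact permutation p = 0.0556, the smallest of 36 relabelings within genotype).

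By genotype the member share was lower in KO on average. KO libraries averaged 15.9% ± 6.33 and CON libraries 22.1% ± 8.15 (SD, n = 4 each), a difference of -6.19 points (two-sided exact permutation p = 0.111, smallest possible 0.0556), and of -3.33 points without CON day 5 replicate 2. Within day 14 the difference was -6.10 points (exact permutation p = 0.333, the smallest of 6 relabelings), and within day 5 it was -6.27 points (exact permutation p = 0.667). Mean UMIs per paired cell, taken from the same sums as these shares, were 21.0 to 25.1 in day 14 libraries and 16.96 to 22.7 in day 5 libraries. With UMIs thinned so that every library had the lowest mean, the member share was 12.5% and 15.0% in KO and 15.2% and 13.7% in CON libraries of day 14, against 8.61% and 11.0% in KO and 10.1% and 12.7% in CON libraries of day 5. The day difference was then 3.51 points (exact permutation p = 0.0556) and the KO minus CON difference -1.16 points (exact permutation p = 0.278). Leaving out the beta-chain clones of 20 or more cells gave a day difference of 3.97 points (exact permutation p = 0.389), with the clones in question all being of day 14. The KO minus CON difference without these clones was -5.65 points, and -5.21 with each clonotype counted once. With cells of exactly 1 TRA chain the day difference was 5.70 points, with each clonotype counted once 5.73 points and with a bound of 40 UMIs 6.44 points.

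At day 14, members were mostly cells of expanded clonotypes, meaning clonotypes of 2 or more paired cells of the library. They made up 70.3% and 78.9% of members in the KO libraries and 80.6% and 78.3% in the CON libraries. Among other cells the shares were 52.2% and 44.2% in KO and 60.6% and 61.5% in CON libraries. Members had the larger share in each of the 4 day 14 libraries, by 22.4 points ± 8.32 (SD, n = 4), with a two-sided exact sign-flip permutation p of 0.13, the smallest that 4 libraries allow. Without the beta-chain clones of 20 or more cells the difference was 13.8 points, again at p = 0.13 in the exact permutation test.

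Day 5 looked different, with few expanded clonotypes in either class. In KO libraries 0 of 34 members, which allows a share of up to 8.82%, and 8.70% of members were expanded, and in CON libraries 2.04% and 17.4%. Other cells had 4.71% and 1.58% in KO and 4.64% and 13.7% in CON libraries. The difference was 0.871 points ± 5.48 (SD, n = 4), with members higher in 2 of 4 libraries (two-sided exact sign-flip permutation p = 0.875). The difference between the days was 21.5 points (two-sided exact permutation p = 0.0556, the smallest possible), and every day 14 library lay above every day 5 library. Over all 8 libraries members exceeded other cells by 11.6 points ± 13.2 (SD) in 6 of 8 libraries, which did not pass (exact sign-flip permutation p = 0.0547, adjusted p = 0.137 over 5 measures). The member minus other difference was 13.8 points ± 16.8 in KO and 9.46 points ± 10.7 in CON libraries (SD, n = 4 each; exact permutation p = 0.5).

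In the day 14 libraries the larger clonotypes held more members, which is given as a description. The share of members was 14.3% ± 4.68 among cells of clonotypes of 1 cell, 22.9% ± 3.86 for 2 to 9 cells and 39.5% ± 10.8 for 10 or more cells (SD, n = 4 libraries). Clonotypes of 10 or more cells held 38.6% and 53.5% of members in KO and 53.0% and 57.5% in CON libraries, against 25.8% and 12.9% of other cells in KO and 35.8% and 31.1% in CON libraries. That difference was 24.3 points ± 12.3 (SD), with members higher in 4 of 4 libraries (exact sign-flip permutation p = 0.13, the smallest possible). At day 5 cells of clonotypes of 1 cell were members in 13.6% ± 5.69 (SD, n = 4).

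**Figure D2:**
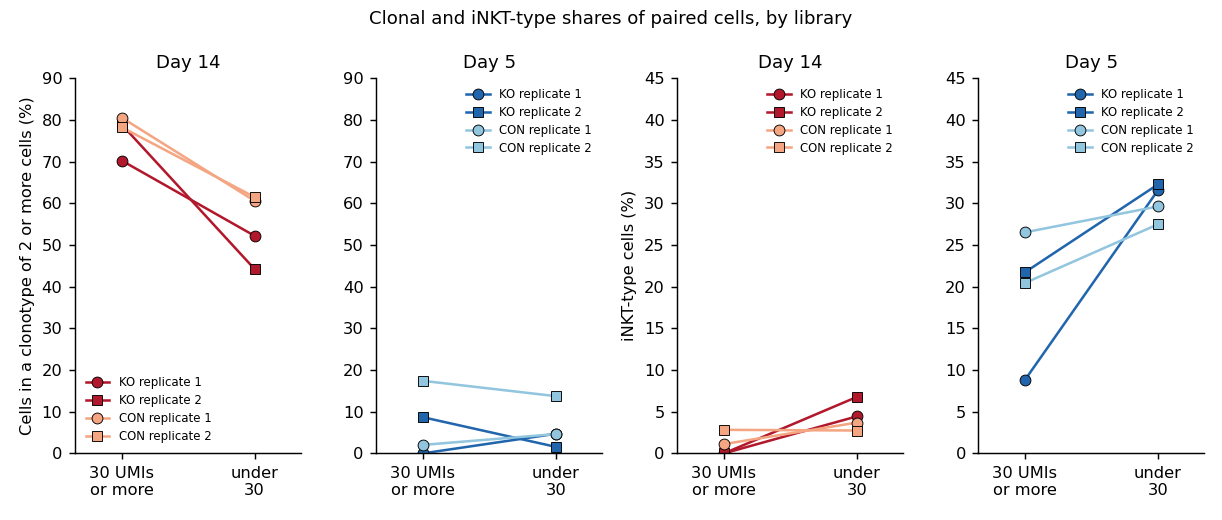
Share of cells in a clonotype of 2 or more cells (left pair of panels) and of iNKT-type cells (right pair) among paired cells of 30 or more UMIs and under 30, in percent; lines join the 2 classes of 1 library. At day 14 all 4 lines for expanded cells run down from members (70.3% to 80.6%) to other cells (44.2% to 61.5%), and at day 5 the iNKT-type share is lower in members in all 4 libraries.

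Large clones did not share 1 level of receptor transcripts. Grouped by the nucleotide sequence of the beta chain, 13 clones of 20 or more cells were found, all at day 14, with 799 cells. They held 331 members, which is 34.6% of members, against 12.8% of other cells. The share of members within a clone ran from 1.12% to 90.5%, and the median from 10 to 57 UMIs per cell. The 4 clones with a median of 30 or more had 249 members among 346 cells, while the other 9 clones had 82 members among 453 cells. The bound of 30 UMIs both split these clones and defined members, so this contrast follows from the rule.

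At the top was a TRBV17 and TRBJ1-1 clone of CON day 14 replicate 1, in which 81 of 97 cells were members with a median of 57 UMIs, 43 of them TRB. In the same library a TRBV13-1 and TRBJ1-6 clone had 19 members among 21 cells and a median of 50 UMIs. At the other end stood a TRBV5 and TRBJ2-7 clone, again of CON day 14 replicate 1, with 1 member among 89 cells and a median of 10 UMIs, 5 of them TRB. The median over all paired cells of that library was 17 UMIs. In clones of 10 or more cells, differences between clones took up 52.9% of the variation in log2 UMIs per cell in CON day 14 replicate 1. That share was 28.3% in CON day 14 replicate 2, and 21.3% and 19.5% in KO day 14 replicates 1 and 2. These shares rest on 13 and 7 clones in the CON libraries and on 5 clones in each KO library. Within clones the SD of log2 UMIs was 0.84 and 0.85 in CON and 0.82 and 0.91 in KO libraries. Among cells whose beta chain was seen once in its library it was 0.91 and 1.03 in CON and 0.96 and 0.94 in KO libraries.

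**Figure D3:**
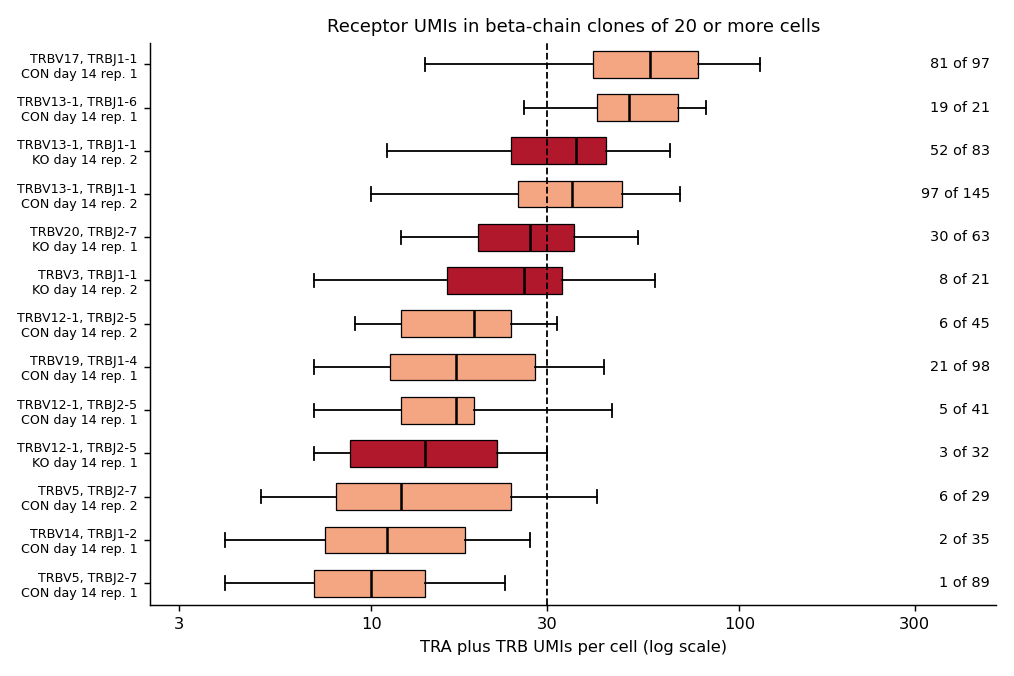
TRA plus TRB UMIs per cell (log scale) in the 13 beta-chain clones of 20 or more cells, named by V and J segment and library; boxes show quartiles and median, whiskers the 5th and 95th percentiles, and the dashed line the bound of 30. Numbers at the right give members of all cells, among them 81 of 97 in the TRBV17 clone with the highest median and 1 of 89 in the TRBV5 clone with the lowest, both of CON day 14 replicate 1.

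The receptors below are those with the most members in each day 14 library, a choice that favours large clonotypes. They are followed by the largest clonotype without a member, which was chosen after its values were seen. Each line gives the CDR3 in the deposited nucleotides, 5′ to 3′. Capitals mark the part inside the 4 codons at either end. The junction of V and J can lie partly or wholly outside the capitals. Alpha chains lie on chromosome 14 and beta chains on chromosome 6.
KO day 14 replicate 1, TRAV7-4 and TRAJ5, alpha: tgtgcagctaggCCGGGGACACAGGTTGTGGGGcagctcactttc
KO day 14 replicate 1, TRBV20 and TRBJ2-7, beta: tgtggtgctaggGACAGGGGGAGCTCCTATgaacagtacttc
KO day 14 replicate 2, TRAV13-3 and TRAJ50, alpha: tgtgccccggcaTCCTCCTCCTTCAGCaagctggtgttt
KO day 14 replicate 2, TRBV13-1 and TRBJ1-1, beta: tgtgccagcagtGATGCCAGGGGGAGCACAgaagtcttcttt
CON day 14 replicate 1, TRAV6-4 and TRAJ39, alpha: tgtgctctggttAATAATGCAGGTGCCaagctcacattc
CON day 14 replicate 1, TRBV17 and TRBJ1-1, beta: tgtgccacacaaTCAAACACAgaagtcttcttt
CON day 14 replicate 2, TRAV7-5 and TRAJ50, alpha: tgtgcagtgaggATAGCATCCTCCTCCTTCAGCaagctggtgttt
CON day 14 replicate 2, TRBV13-1 and TRBJ1-1, beta: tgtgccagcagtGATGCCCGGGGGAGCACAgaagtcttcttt
CON day 14 replicate 1, no member, TRAV7-6 and TRAJ22, alpha: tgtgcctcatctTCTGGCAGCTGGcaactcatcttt
CON day 14 replicate 1, no member, TRBV5 and TRBJ2-7, beta: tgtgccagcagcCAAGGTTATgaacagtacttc

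The first of these clonotypes had 30 members among 63 cells with a median of 27 UMIs. Those of KO day 14 replicate 2, CON day 14 replicate 1 and CON day 14 replicate 2 had 48 members among 72 cells, 61 among 67 and 77 among 110, with medians of 37, 57 and 36 UMIs. The clonotype without a member held 87 cells with a median of 10 UMIs. In day 5 libraries the most frequent member clonotype had 3 members among 15 cells (CON day 5 replicate 2, TRAV9-1 and TRAJ22 with TRBV26 and TRBJ1-2), and in the other 3 it had 1 or 2.

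A pair of these clones had the same beta chain at the amino acid level. The TRBV13-1 and TRBJ1-1 chains of KO day 14 replicate 2 and CON day 14 replicate 2 differed by 1 base of 42. Many cells of both clones also carried a further alpha chain of TRAV6-6 and TRAJ43 with identical nucleotides, printed here with both beta chains and with the differing base in capitals.
Shared alpha, TRAV6-6 and TRAJ43: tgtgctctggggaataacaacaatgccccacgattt
KO day 14 replicate 2, beta: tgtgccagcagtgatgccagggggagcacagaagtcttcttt
CON day 14 replicate 2, beta: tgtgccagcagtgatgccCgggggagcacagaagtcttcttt

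By beta chain, the KO clone had 52 members among 83 cells with a median of 36 UMIs, and the CON clone 97 among 145 with a median of 35 UMIs. The TRAV6-6 chain was found in 54 cells of the KO clone and 110 of the CON clone. A TRAJ50 chain, joined to TRAV13-3 in the KO clone and to TRAV7-5 in the CON clone, was found in 82 and 136 cells. These libraries had 0 cell barcodes in common. Receptors were shared elsewhere too, with 15 amino acid receptors and 3 nucleotide clonotypes of paired cells found in more than 1 library. Among the amino acid receptors, TRAV7-6 and TRAJ22 with TRBV5 and TRBJ2-7 had 1 member among 12 cells in KO day 14 replicate 2. In CON day 14 replicate 1 that receptor had 2 members among 9 cells.

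Cells with 2 productive TRA chains were more frequent among members in each library, a count that the UMI sum itself takes in. They made up 11.9% and 43.9% of members in KO and 36.6% and 42.9% in CON libraries of day 14, against 8.61% and 10.6% of other cells in KO and 5.31% and 9.09% in CON libraries. At day 5 they were 8.82% and 15.2% of members in KO and 10.2% and 15.9% in CON libraries, against 5.26% and 7.28% of other cells in KO and 7.73% and 4.66% in CON libraries. Over 8 libraries the difference was 15.9 points ± 14.3 (SD). Among cells whose beta chain was seen once in its library it was narrower, at 8.82% to 16.7% of members against 4.38% to 9.30% of other cells. Of the 13 beta-chain clones, 4 had 2 TRA chains in many of their cells, namely 77.3% of the TRBV17 clone, 63.9% and 69.7% of the TRBV13-1 and TRBJ1-1 clones of KO and CON, and 57.1% of a TRBV3 clone of KO day 14 replicate 2. Cells of these clones with a single TRA had medians of 38.5, 29, 26 and 16 UMIs in the same order.

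The extra UMIs of members lay more in TRB than in TRA. TRA UMIs per TRB UMI were 0.388 and 0.327 in members of KO and 0.358 and 0.381 in members of CON libraries of day 14, against 0.551 and 0.483 in other cells of KO and 0.551 and 0.578 in other cells of CON. At day 5 members had 0.364 and 0.421 in KO and 0.302 and 0.323 in CON, against 0.400 and 0.472 in other cells of KO and 0.433 and 0.406 in other cells of CON. Members were lower in 8 of 8 libraries, by 0.43 ± 0.19 on the log2 scale (SD). In cells with exactly 1 TRA chain the ratio was 0.274 to 0.370 in members and 0.388 to 0.557 in other cells. The rule summed these same UMIs, most of them TRB, so a lower ratio in members can follow from the rule. Members against other cells was therefore not tested. No difference in this ratio of members by day or genotype passed the test. Its log2 value averaged -1.46 ± 0.11 in day 14 libraries and -1.52 ± 0.21 in day 5 libraries (SD, n = 4 each; difference 0.053, exact permutation p = 0.722), and -1.42 ± 0.15 in KO and -1.56 ± 0.15 in CON (SD, n = 4 each; difference 0.14, exact permutation p = 0.278). The KO minus CON difference was -0.051 within day 14 and 0.33 within day 5.

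iNKT-type cells, named from TRAV11 joined to TRAJ18 alone, were less frequent among members in 7 of 8 libraries. They numbered 62 members and 546 other cells. At day 14 they were 0 of 101 and 0 of 114 members in KO libraries, which allows shares of up to 2.97% and 2.63%, and 1.12% and 2.83% of members in CON libraries. Other cells of day 14 had 4.44% and 6.77% in KO and 3.70% and 2.75% in CON libraries. At day 5 they were 8.82% and 21.7% of members in KO and 26.5% and 20.5% in CON libraries, against 31.6% and 32.3% of other cells in KO and 29.6% and 27.5% in CON libraries. Only CON day 14 replicate 2 had the higher share in members.

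Over 8 libraries the iNKT-type share of members minus that of other cells was -7.14 points ± 7.09 (SD), lower in 7 of 8 libraries (two-sided exact sign-flip permutation p = 0.0156, adjusted p = 0.0781 over 5 measures), which did not pass after adjustment. The difference was -3.43 points at day 14 (exact permutation p = 0.25) and -10.9 at day 5 (exact permutation p = 0.13, the smallest possible), a change of 7.43 points between days (exact permutation p = 0.0556, the smallest possible). By genotype, KO libraries had differences of -4.44 and -6.77 points at day 14 and -22.8 and -10.5 at day 5, and CON libraries -2.58 and 0.082 points at day 14 and -3.11 and -7.04 at day 5. Both KO libraries lay below both CON libraries within each day. The KO minus CON difference of these values was -7.97 points (exact permutation p = 0.0556, the smallest possible). KO day 5 replicate 1, which had 34 members, weighed on these values: without it the day 5 difference was -6.90, the change between days 4.38 and the KO minus CON difference -4.91 points. The bound mattered too. At 20 UMIs the difference over 8 libraries was -2.31 points (exact permutation p = 0.172), and with members taken as the 20% of cells with the most UMIs in each library it was -3.85 (exact permutation p = 0.0938). The day 5 difference was -1.41 points at 20 UMIs (exact permutation p = 0.75), -3.77 for those 20% (exact permutation p = 0.5) and -0.863 with members chosen by 20 or more TRB UMIs (exact permutation p = 0.75).

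Counted the other way, members were 0 of 16 and 0 of 30 iNKT-type cells in KO and 8.57% and 31.6% of them in CON libraries of day 14, and 2.56% and 8.93% in KO and 10.2% and 17.9% in CON libraries of day 5. Cells of other receptors seen in 1 cell were members in 16.1% and 9.80% in KO and 13.7% and 19.0% in CON libraries of day 14, and in 11.7% and 13.3% in KO and 12.1% and 23.2% in CON libraries of day 5. The exact 95% intervals of the iNKT-type shares were wide, from 0% to 11.6% for the 30 cells of KO day 14 replicate 2 and from 12.6% to 56.6% for the 19 cells of CON day 14 replicate 2. Medians per iNKT-type cell at day 14 were 11 and 10 UMIs in KO and 17 and 18 in CON libraries, beside 15 and 12 in KO and 14.5 and 15 in CON libraries for cells of other receptors seen once. At day 5 they were 14 to 17 UMIs, beside 14 to 18 in the other cells. TRA UMIs per TRB UMI were 0.264 to 0.448 in iNKT-type cells and 0.388 to 0.499 in those other cells, lower in iNKT-type cells in each library except KO day 14 replicate 2. No member was MAIT-type (TRAV1 with TRAJ33), 0 of 956, which allows a share of up to 0.314%, and 3 other cells were.

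The invariant alpha junction was nearly the same sequence in members and other cells. The commonest forms differ in the base shown in capitals after the first sequence, and the first 4 encode the same amino acids.
iNKT-type alpha 1: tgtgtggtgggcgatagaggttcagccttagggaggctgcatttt
iNKT-type alpha 2: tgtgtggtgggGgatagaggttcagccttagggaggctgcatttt
iNKT-type alpha 3: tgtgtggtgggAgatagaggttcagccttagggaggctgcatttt
iNKT-type alpha 4: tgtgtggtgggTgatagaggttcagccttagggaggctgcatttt
iNKT-type alpha 5: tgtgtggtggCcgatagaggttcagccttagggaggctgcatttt

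The first was carried by 37.1% of iNKT-type members and 37.5% of other iNKT-type cells, the second by 25.8% and 25.6%, the third by 14.5% and 17.6%, the fourth by 8.06% and 11.7%, and the last by 3.23% and 1.10%. The common amino acid form was found in 88.7% of iNKT-type members and 94.0% of other iNKT-type cells. Their beta chains were most often of the joint name TRBV12-2+TRBV13-2, in 43.5% of iNKT-type members and 54.2% of other iNKT-type cells. What this joint name stands for was not resolved here. TRBV1 followed in 19.4% of members and 6.78% of others, TRBV13-1 in 16.1% and 15.0%, and TRBV29 in 9.68% and 10.6%. These shares rest on 62 members and were not tested.

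Segment use was tested on numbers of cells per V or J segment with edgeR's quasi-likelihood test, members against other cells within library, over 97 segments with 40 or more cells. After Benjamini-Hochberg adjustment 7 segments passed (7.22% of those tested), 4 higher and 3 lower in members, against 1 higher and 3 lower with TMM scaling factors. DESeq2 called 0, and 18 had an unadjusted p under 0.05 in edgeR. The median log2 fold change of all 97 segments was -0.25. The number of calls depended on single libraries: 1 segment passed without KO day 14 replicate 2 or CON day 14 replicate 2, 3 without CON day 14 replicate 1 (2 of them among the 7), KO day 5 replicate 1 or KO day 5 replicate 2, and 4 without KO day 14 replicate 1. Of the 7, TRBV17 passed under 18 of 22 alternatives and TRBJ1-1 under 14 of 22. The other 5 passed under 4 to 7 of 20 to 22 alternatives.

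TRBV17 (chr6:41163092-41163556, all positions from RefSeq GRCm38.p6) stood first among the segments higher in members. It was used by 2.97% and 0% of members in KO and 31.7% and 0.943% in CON libraries of day 14, and by 8.82% and 2.17% in KO and 4.08% and 9.09% in CON libraries of day 5. Among other cells its share was 0.278% to 3.33%. Members were higher in 7 of 8 libraries, with a log2 difference of 1.86 ± 0.48 (SE, edgeR adjusted p = 0.0113). The 108 TRBV17 members held 25 beta clones, and 81 of them were the clone of CON day 14 replicate 1. A clonotype was set by the TRA with most UMIs, so a beta clone with 2 TRA chains could count more than once. The clonotype of TRAV6-4 and TRAJ39 held 67 of the 97 cells of this beta clone. With each clonotype counted once in each class and library, TRBV17 was the only segment called, at 1.47 ± 0.41 (SE, edgeR adjusted p = 0.0360). It did not pass without CON day 14 replicate 1 (1.32, edgeR adjusted p = 0.161), at a bound of 40 UMIs (1.57, edgeR adjusted p = 0.130), without the large beta clones (1.41, edgeR adjusted p = 0.0746) or with DESeq2 (1.76, adjusted p = 0.112).

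TRBJ1-1 (chr6:41533864-41533911), the first segment of the Jbeta1 cluster, was higher in members in 8 of 8 libraries, at 8.91% to 56.1% of members and 6.67% to 18.3% of other cells. The log2 difference was 1.04 ± 0.30 (SE, edgeR adjusted p = 0.0320), and 0.40 ± 0.22 (SE, edgeR adjusted p = 0.353) with each clonotype counted once. TRAJ50 (chr14:54167590-54167652) and TRBV13-1 (chr6:41116036-41116468) followed the clones printed above. TRAJ50 made up 42.1% of members in KO day 14 replicate 2 and 36.3% in CON day 14 replicate 2, in each library from 1 beta clone, and 0% to 2.94% elsewhere, with a log2 difference of 1.42 ± 0.48 (SE, edgeR adjusted p = 0.0495). TRBV13-1 had a log2 difference of 0.93 ± 0.31 (SE, edgeR adjusted p = 0.0495), and 0.25 ± 0.26 (SE, edgeR adjusted p = 0.791) with each clonotype once. For TRBV13-1, members were lower in KO day 14 replicate 1 (5.94% against 8.33%) and KO day 5 replicate 1 (8.82% against 9.70%). They were also lower in KO day 5 replicate 2 (2.17% against 6.96%) and higher in each other library.

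Lower in members were TRBV2, TRAV11 and the joint TRBV12-2+TRBV13-2. TRBV2 (chr6:41047556-41047995) was carried by 8 members and 118 other cells, at 0% to 3.03% of members and 2.58% to 4.44% of other cells (log2 fold change -1.92 ± 0.61, SE, edgeR adjusted p = 0.0495). TRAV11 (chr14:53519303-53519859), the iNKT alpha segment, was lower in 8 of 8 libraries (-1.02 ± 0.34, SE, edgeR adjusted p = 0.0495), while TRAJ18 (chr14:54200777-54200842) did not pass (-0.77 ± 0.32, SE, edgeR adjusted p = 0.136). The joint name was lower in 7 of 8 libraries (-0.96 ± 0.33, SE, edgeR adjusted p = 0.0495). TRBV13-2 alone had 2 members and 58 other cells and did not pass (edgeR adjusted p = 0.0639), and neither did TRBV13-3, with 22 members and 163 other cells (edgeR adjusted p = 0.258).

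At day 14, 8 segments passed (8.25% of 97), 5 higher and 3 lower (5 and 1 with TMM scaling factors), with 2 by DESeq2 and 29 at an unadjusted p under 0.05 in edgeR. The median of all segments was -0.55. TRAV6-4 (chr14:53454327-53454784, log2 fold change 2.63 ± 0.76, SE, edgeR adjusted p = 0.0114) and TRBV29 (chr6:41271403-41271881, -2.77 ± 0.81, SE, edgeR adjusted p = 0.0114) came in beside TRAJ50, TRBJ1-1, TRBV13-1, TRBV17, TRBV2 and TRAV11. TRAV6-4 is the alpha segment of the TRBV17 clone, and 66 members and 17 other cells carried it at day 14. TRBV29 was found in 3 members and 65 other cells of day 14. With each clonotype counted once, with the large beta clones left out, or with cells of exactly 1 TRA chain, 0 passed at day 14, with 8, 10 and 20 at an unadjusted p under 0.05. Without KO day 14 replicate 2, 4 passed.

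At day 5, 0 segments passed (0% of 97), with 0 by DESeq2 and 4 at an unadjusted p under 0.05 in edgeR. TRBV17 had the smallest p there and was higher in members in 4 of 4 libraries (6.04% ± 3.46 of members, 1.70% ± 1.22 of other cells, SD; log2 fold change 1.76 ± 0.65, SE, edgeR adjusted p = 0.699). TRAJ17 (chr14:54201775-54201837) was likewise higher in 4 of 4 (4.68% ± 1.37 of members, 1.51% ± 0.76 of other cells, SD; 1.85 ± 0.76, SE, edgeR adjusted p = 0.713). For the change between days 0 of 97 passed (0%), with 0 by DESeq2 and 7 at an unadjusted p under 0.05. TRAJ17 had the smallest p (log2 change -4.04 ± 1.23, SE, edgeR adjusted p = 0.108). For the KO minus CON change 0 of 97 passed (0%), with 0 by DESeq2 and 3 at an unadjusted p under 0.05. TRAV11, the segment of this comparison that also passed over all libraries, had -1.32 ± 0.73 (SE, edgeR adjusted p = 0.975).

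**Figure D4:**
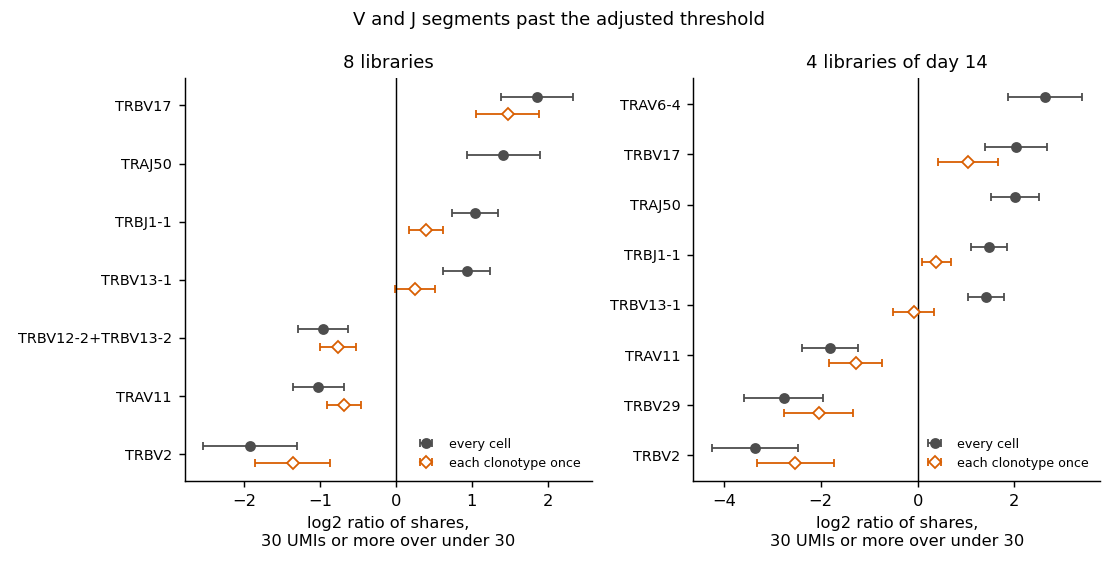
Log2 ratio of segment shares in cells of 30 or more UMIs over cells under 30 (bars, SE) for the segments past an edgeR adjusted p of 0.05, over 8 libraries (left) and for the 4 libraries of day 14 (right). Filled circles count every cell and open diamonds each clonotype once; TRBV13-1 moves from 0.93 to 0.25 on the left, and TRAJ50 and TRAV6-4 had too few clonotypes for a second value.

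By list, the iNKT alpha pair had 0 segments higher and 1 lower of 2 tested, and the iNKT beta segments 1 higher and 1 lower of 6. The Jbeta1 cluster had 1 higher and 0 lower of 6, and the Jbeta2 cluster 0 of 6 in either direction. Of the V-distal Jalpha segments (TRAJ2 to TRAJ18) 0 of 9 passed, and of the V-proximal ones (TRAJ40 to TRAJ58) 1 of 11 was higher. The medians of these lists were -0.90, -0.91, -0.34, -0.54, 0.11 and -0.043 on the log2 scale, beside -0.25 for all segments, of which 7.22% passed.

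Outside clones the beta V segment still went with the number of TRB molecules. Among 2711 cells whose beta chain was seen once in its library, 13.8% were members. For the 20 TRBV names with 40 or more such cells the share ran from 37.9% with TRBV17 (22 of 58 cells) to 3.57% with TRBV13-2 (2 of 56), and TRBV2 had 6.59% (6 of 91). Median TRB UMIs were 21 for TRBV17, 17 for TRBV15, 15 for TRBV1, 6 for TRBV5, 5 for TRBV13-2 and 4 for TRBV2, with 10 over all these cells. Median TRA UMIs in the same cells stayed between 3 and 5 for all 20 names. Names of the other segment classes varied less, with median TRB UMIs of 8 to 11 across TRBJ, 8 to 11 across TRAV and 7 to 12 across TRAJ.

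Several names at the ends of this order, chosen after their values were seen, were compared with each library's median. The TRBV17 median for TRB was above the library's median in 8 of 8 libraries, at 11.5 to 38 against 8 to 12.5 UMIs. TRBV1 and TRBV15 were also above in 8 of 8. TRBV2 was below in 8 of 8, at 3 to 7 UMIs, and TRBV5 in 8 of 8, at 3 to 9 UMIs. TRBV13-2 was below in 7 of 8, with 15 UMIs over 3 cells of CON day 14 replicate 2, and TRBV16 was above in 7 of 8. A library held only 4 to 17 TRBV17 cells of this kind and 7 to 21 TRBV2 cells. TRBV17 and TRBV2 had the largest positive and negative log2 fold change among the 7 called. The UMI sum that chose members is mostly TRB, and these cells entered both results, so this is not a separate observation. The part of the difference in TRB UMIs in those calls was not tested.

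**Figure D5:**
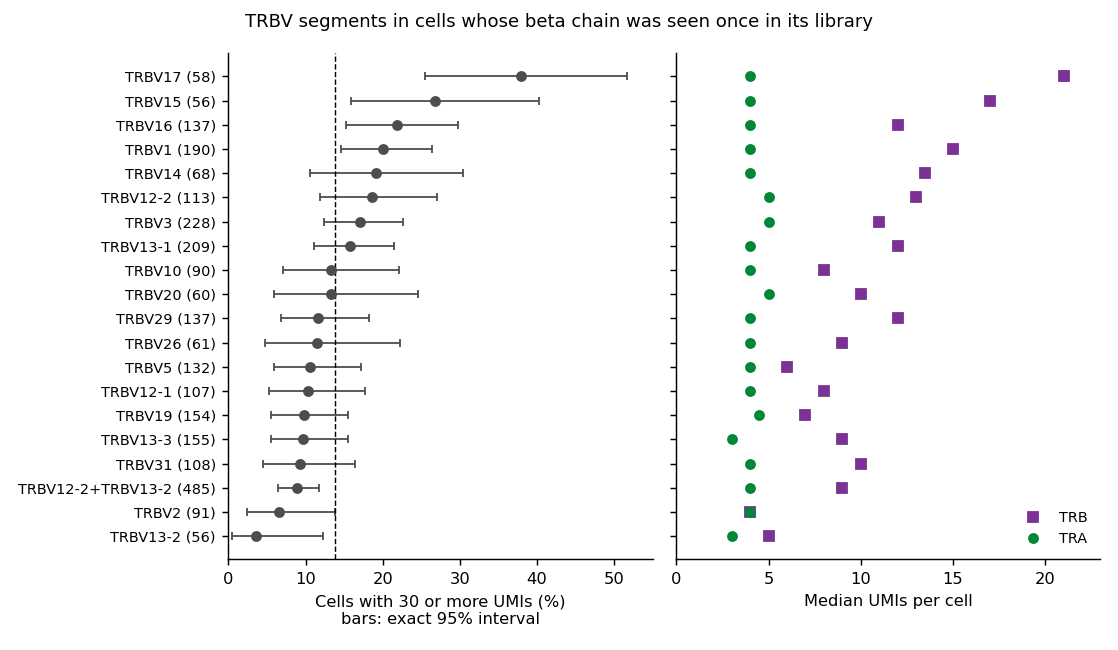
Cells whose beta chain was seen once in its library, by TRBV name (number of cells in brackets); left, percent with 30 or more UMIs with the exact 95% interval (counting error only) and the share over all 2711 cells as a dashed line; right, median TRB and TRA UMIs per cell. TRB medians run from 21 (TRBV17) to 4 (TRBV2), while TRA medians lie between 3 and 5.

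CDR3 loops differed little. The TRA loop of members averaged 13.8 ± 0.20 residues, and that of other cells 13.8 ± 0.26 (SD, n = 8; difference -0.030, exact sign-flip permutation p = 0.742). The TRB loop averaged 13.7 ± 0.31 residues in members and 13.9 ± 0.24 in other cells (SD; difference -0.165, higher in members in 1 of 8 libraries, exact permutation p = 0.164, adjusted p = 0.234). Hydropathy of the TRB loop, its mean Kyte-Doolittle value without 4 residues at either end, was -1.12 ± 0.17 in members and -1.21 ± 0.08 in other cells (SD; difference 0.088, higher in 5 of 8 libraries, exact permutation p = 0.188, adjusted p = 0.234). With each clonotype counted once the TRB loop difference was -0.262 residues and the hydropathy difference 0.135, each at an unadjusted exact permutation p of 0.0156.

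Barcodes outside the rule were compared by the same UMI sum. It runs over all productive chains of a barcode, so it tends to be higher with more chains and lower with 1 chain. Of 173 barcodes with 2 or more TRB or 3 or more TRA chains, possible doublets that the rule leaves out, 89 (51.4%) had 30 or more UMIs. Of 973 barcodes with TRB alone 19 (1.95%) did, and of 148 with TRA alone 1 (0.676%). Non-productive TRA contigs accompanied 19.3% to 62.4% of members and 16.7% to 33.9% of other cells of a library. Their share was lower in members in the CON libraries of day 14 (22.8% against 27.4% and 21.7% against 26.8%). It was higher in members in each other library, with the 62.4% in KO day 14 replicate 1. How far doublets entered the members with a single TRB chain was not tested.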

How the data were processed

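The deposited tables list receptor contigs per library. Per the file headers, the deposited counts of UMIs and reads per contig are whole numbers without normalization, and other deposited values such as contig length were not compared. The submitters' processing notes name Cell Ranger 3.1.0, CASAVA 1.8, Seurat 4.0.0, R 4.1.2 and the build GRCm38 (mm10), without roles. Chains were high-confidence productive contigs of called cells, and a cell with several was described by its TRA with most UMIs. TRAV names of duplicated copies were merged (88 names to 47). Cells shared a clonotype where V, J and CDR3 nucleotides of both chains were equal.

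Shares, loop lengths and hydropathy were tested over libraries by exact permutation, two-sided. Within-library differences were sign-flipped (8 libraries, smallest p 0.0078; 4 libraries, 0.13), and day or genotype labels were permuted within the other factor (36 relabelings, smallest p 0.0556). Segment counts of members and other cells (16 columns) were tested with edgeR 4.0.16 in R 4.3.3, with library as a covariate and the log number of cells as offset. Segments with 40 or more cells were tested, with Benjamini-Hochberg adjustment and a threshold of 0.05. DESeq2 1.42.0 was an alternative. The tests were tested on simulated data. Scripts used Python 3.11.15, pandas 2.3.3 and scipy 1.17.1. Intervals are exact (Clopper-Pearson) 95% and, like limits for a count of 0 (3 counts of the total), cover counting error only.

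The rule for named segments was to take at most 10 higher and 10 lower ones past the threshold, to fill up to 8 by smallest p where less than 8 passed, and to add TRAV11, TRAJ18 and the Vbeta8 segments. Of these, the text gives values only for those it describes. Named clonotypes were those with the most members in each library, with 3 or more members. The clonotype without a member was outside this rule and was added after its values were seen. Positions of 26 of 27 named segments came from RefSeq. The members, lists and tests were chosen with earlier results of these data known. Cells are not replicates, and libraries were the unit of every test.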

Additional observations from a re-analysis of the deposited data

Results flagged for a closer look

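In 19 groups of 4 libraries checked for a library far from the rest, 2 were found, where chance gives about 1 in 20. At day 14 the member minus other difference in TRA loop length was -0.283 residues in KO day 14 replicate 2, away from 0.251 in KO day 14 replicate 1, 0.215 and 0.224 in the CON libraries. At day 14 the excess of cells with 2 TRA chains among members was 3.27 points in KO day 14 replicate 1, against 31.3 to 33.8 points in the other 3 libraries. That library's largest member clone, of TRBV20, held 63 cells with 1 TRA chain each. Outside the paired productive chains, gamma or delta contigs, none of them productive, were found in 0.689 per 100 cells on average over the KO libraries of day 14, with 0.702 and 0.677 there against 0.356 and 0.242 in the CON libraries of day 14. At day 5 the values were 0.360 and 1.27 in KO and 0.669 and 0.539 in CON libraries. This difference was not tested, and only 5 members carried such a contig.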

How the results depend on the processing

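Over the alternatives run, 429 of 497 values of the summary results kept their direction and side of the threshold. The threshold was an unadjusted p of 0.05 for the exact tests and a 1.5-fold range for counts of segments. Exact tests between days or genotypes (smallest p 0.0556) and within a day (smallest p 0.13) could not pass 0.05. For those tests only the direction could change. The cause of changes in the other values was not tested unless stated. The expanded share over 8 libraries passed an unadjusted 0.05 at a bound of 20 UMIs (10.4 points), for the top 20% of each library (11.6), with 1 TRA chain (9.42), without shared barcodes (11.6), by TRB alone (12.1), with thinned UMIs (9.85), and without KO day 5 replicate 1 (14.0) or CON day 5 replicate 1 (13.7), in a range of 8.33 to 14.0 over libraries left out. The iNKT-type difference no longer did at 20 UMIs (-2.31), for the top 20% (-3.85) or with members chosen by 20 or more TRB UMIs (-2.07, an alternative chosen after seeing the data), and its change between days reversed under these 3 (-1.80, -0.159 and -2.41). Loop length of TRB passed with each clonotype once (-0.262) and without CON day 14 replicate 2 (range -0.245 to -0.102 over libraries left out), and hydropathy with 1 TRA chain (0.130), each clonotype once (0.135) and without large beta clones (0.156, chosen after seeing the data). Small differences changed sign: TRA loop length at 20 UMIs (0.0043), for the top 20% (0.0063), without iNKT-type cells (0.068), by TRB UMIs (0.032) and over libraries left out (-0.070 to 0.024); the log2 TRA to TRB ratio between days at 40 UMIs (-0.013), without iNKT-type cells (-0.019), with thinned UMIs (-0.0067) and over libraries left out (-0.0087 to 0.115), and between genotypes with 1 TRA chain (-0.011); the day 5 expanded difference by TRB UMIs (-0.363) and over libraries left out (-1.21 to 2.73); and its KO minus CON change at 40 UMIs (-1.17). The log2 TRA to TRB difference became -0.92 when TRB UMIs chose the members, by construction of that rule.

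Segments called over 8 libraries numbered 2 at 40 UMIs, with chains of 2 or more UMIs, without shared barcodes, with TRAV copies apart or with no filter, 3 for the top 20% or with 1 TRA chain, 4 without iNKT-type cells, 4 with TMM factors (1 higher, 3 lower), 1 with each clonotype once or without large beta clones (then TRBV16), 12 by TRB UMIs, 0 with DESeq2, and 1 to 6 over libraries left out. At day 14 they numbered 13 at 20 UMIs, 5 at 40, 14 for the top 20%, 16 by TRB UMIs, 2 with DESeq2, 0 with 1 TRA chain, each clonotype once or no large beta clones, and 4 to 11 over libraries left out; with TMM factors 5 were higher and 1 lower, and the median of all segments was -0.20 in place of -0.55, while it was -0.49 in place of 0.077 at day 5, 0.30 in place of -0.58 for the change between days and -0.43 in place of 0.067 for the KO minus CON change. By TRB UMIs 1 passed at day 5. For the change between days 1 passed with each clonotype once, and 0 to 1 over libraries left out. Segments that changed sign were TRAJ18 without iNKT-type cells (0.20 over 8 libraries, 0.72 at day 5, by construction) and, for the change between days, with TMM factors (0.37). TRBV13-1 did so at day 5 at 40 UMIs (-0.14), with TMM factors (-0.28) and without CON day 5 replicate 2 (-0.010, range to 0.58 over libraries left out), and at day 14 and for the change between days with each clonotype once (-0.080 and -0.57) and without large beta clones (-0.38 and -0.75). For the change between days TRBV13-2 did at 20 UMIs (1.36) and the joint name without large beta clones (0.19) and with TMM factors (0.47). TRBV13-3 did at day 5 without KO day 5 replicate 1 (0.027, range from -0.63), and in the KO minus CON change with each clonotype once (-0.30), TMM factors (-0.22), and without CON day 14 replicate 1 (-0.32) or KO day 14 replicate 2 (-0.15, range to 1.06). None of these passed the threshold. Library depth limits these comparisons, with 34 to 268 members in a library.

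Replicate numbers are shared by the groups, but no label says that they pair libraries, and deviations of KO and CON libraries with 1 number correlated at 0.253 at day 14 and -0.0097 at day 5 over 97 segments. With the replicate number as a block, the day difference in member share was 10.4 points (exact permutation p = 0.13, the smallest possible) and 0 segments changed between days or genotypes, as without it.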
